A study of Danio rerio with 10 samples.

Results

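Hemoglobin, the oxygen carrier of red blood cells, is built from alpha-type and beta-type globin chains that each hold a heme. The expression of 8 genes of its supply was followed in whole zebrafish embryos: the embryonic globin genes hbbe1.1, hbbe2 and hbae3, and the heme synthesis genes alas2, alad, urod, cpox and fech. They were taken by symbol from a table of 14650 genes, all 8 were found and all 8 were among the 11871 genes tested. RNA-seq libraries came from 5 wild-type samples of the ABTU strain and 5 samples of a tpcn2 mutant line, all at the 17 to 18 somite stage and kept at 28 °C. tpcn2 encodes two-pore channel 2, a calcium-releasing cation channel of lysosomes. The series' design text calls the samples biological replicates. The allele, the mutant's strain background and whether replicates are separate clutches are stated by neither the labels nor the design text, so differences between the groups cannot be told apart from those of background or clutch, and p-values measure the spread between these samples.

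In the zebrafish embryo the first red cells arise from mesoderm of the trunk, the intermediate cell mass, and switch on embryonic globins before circulation starts. Heme is made in steps that begin and end in the mitochondrion. 5-aminolevulinate synthase, of which alas2 encodes the erythroid form and alas1 the form found in most cells, makes the first precursor. The enzymes encoded by alad, hmbsa or hmbsb, uros and urod assemble the porphyrin ring in the cytosol, and those of cpox, ppox and fech finish it and insert iron. Loss of alas2 in the zebrafish mutant sauternes causes anemia. Zebrafish globin genes lie in a major and a minor locus. In the RefSeq table of the GRCz12tu assembly, used for names and neighbours, hbbe1.1 and hbae3 fell in the cluster of 11 named globin genes and hbbe2 in the cluster of 4, between hbbe3 and hbae5.

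Total counts per library lay between 17890367 and 22498643. Levels are given as CPM, reads of a gene per 1000000 counted reads, scaled by TMM factors. The targeted gene tpcn2 was lower in the mutant, at 6.72 to 10.3 CPM against 47.0 to 81.0 CPM. Of all tested genes, 2442 rose and 2569 fell in the mutant (quasi-likelihood test of edgeR, Benjamini-Hochberg adjusted p under 0.05). Correlations of log2 CPM between libraries were 0.981 to 0.991 within wild type and 0.990 to 0.992 within the mutant. Wild-type replicate 1 had the lowest mean correlation with its own group (0.984). All 10 markers of embryo tissues had reads, and 4 rose and 2 fell (60% called, against 42.2% of all tested genes). The hatching gland gene ctslb was at 1080 ± 103 and 1639 ± 101 CPM, the muscle gene acta1a at 873 ± 144 and 564 ± 33.0 CPM, the notochord gene col2a1a at 365 ± 47.9 and 477 ± 18.7 CPM and the heart gene myl7 at 16.5 ± 4.0 and 9.89 ± 1.55 CPM (wild type, then mutant). Another hatching gland gene, he1a, was at 826 ± 88.5 and 868 ± 77.1 CPM and did not pass (edgeR adjusted p = 0.476). Nor did another muscle gene, myhz1.1, at 22 ± 7.8 and 20.4 ± 4.7 CPM (edgeR adjusted p = 0.729). The count of rising markers was 2 without wild-type replicate 3 or 4 or mutant replicate 1, 2, 4 or 5. Their summed level, 29370 to 34990 CPM in wild type and 30850 to 34420 CPM in the mutant, is mostly that of krt4. Red cell genes were present, with all 11 measured genes of red cell membrane, enzymes and receptor detected (summed level 246.1 to 280.2 CPM in wild type and 247.1 to 277.6 CPM in the mutant).

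Of the 8 genes, 4 were lower and 2 higher in the mutant. The beta-type globins hbbe1.1 and hbbe2 fell by the most, to 0.205 and 0.427 times the wild-type mean, while the alpha-type globin hbae3 did not pass. Among the enzymes, alad and urod fell, alas2 and fech of the first and last steps rose, and cpox did not pass. The 6 called genes are 75% of the 8, against 42.2% of all tested genes called in either direction (20.6% higher and 21.6% lower). The libraries of the 2 groups did not overlap for 4 of the 8 genes, against 28.7% of all tested genes. With 1 library left out, 4 stayed the count of lower genes in all 10 fits. The count of higher genes, 2 with all libraries, stayed 2 without wild-type replicate 1 or 2 or mutant replicate 2 or 4. It dropped to 1 when wild-type replicate 4 or 5 or mutant replicate 5 was left out. It was 0 without mutant replicate 1 or 3 or wild-type replicate 3. The median absolute log2 fold change was 0.321 for the 8 genes and 0.219 for all tested genes. The 8 genes were chosen with earlier results of these data known, so their distance from all tested genes is a description and no test. In whole embryos, changes in red cell number, in RNA per red cell and, for the heme enzyme genes, in other cells cannot be told apart.

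**Figure D1:**
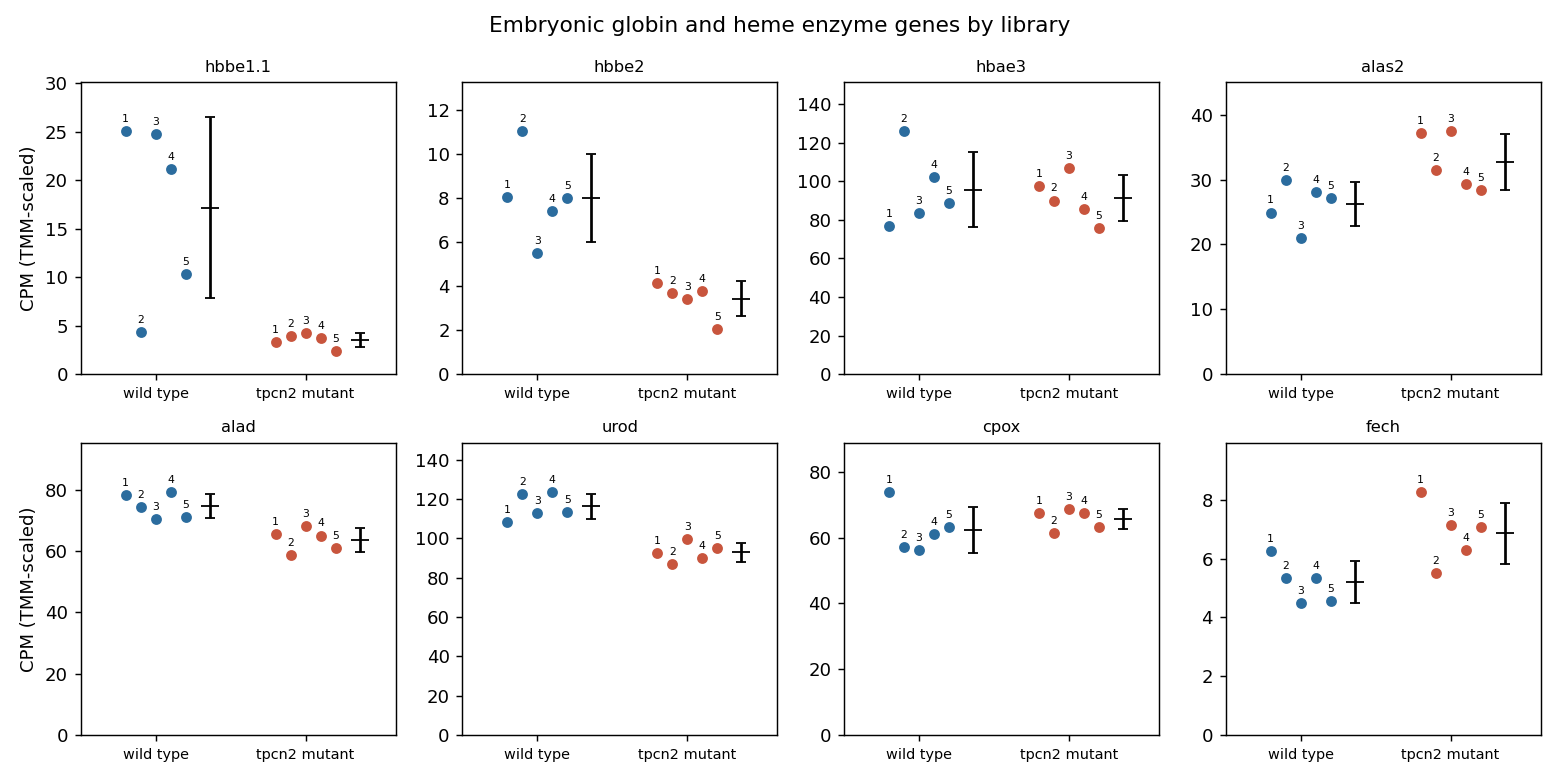
CPM (TMM-scaled) of each of the 8 genes in the 5 wild-type (blue) and 5 tpcn2 mutant (red) libraries, numbered by replicate, with the mean and SD as a black bar at the right of each group; every axis starts at 0. The groups do not overlap for hbbe1.1, hbbe2, alad and urod, and wild-type replicate 2 (4.37 CPM) lies next to the highest mutant library (4.28 CPM) for hbbe1.1.

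hbbe1.1, an embryonic beta-type globin of the major locus, was at 25.1, 4.37, 24.8, 21.2 and 10.3 CPM in wild-type replicates 1 to 5. It was at 3.33, 3.97, 4.28, 3.68 and 2.34 CPM in mutant replicates 1 to 5. All mutant libraries lay below all wild-type libraries, but the margin was small because wild-type replicate 2 held about as little hbbe1.1 as the mutants. The wild-type mean of 17.2 ± 9.32 CPM and the mutant mean of 3.52 ± 0.747 CPM (SD, n = 5) gave a log2 fold change of -2.27 ± 0.504 (SE), with an edgeR adjusted p of 2.87e-04. An exact permutation test on log2 CPM, two-sided, returned p = 0.00794, the minimum for 5 libraries a group. Inverting it gave a 95% interval of -3.00 to -0.75 for the difference of mean log2 CPM. That difference, to which the SE also belongs, was -2.02. In the authors' deposited table the log2 fold change of hbbe1.1 is -1.32 with an adjusted p of 4.87e-06, a smaller decrease than that from the counts. How the deposited value was estimated was not tested.

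The spread of hbbe1.1 among wild-type samples stood out from that of the other globins. Its highest and lowest wild-type libraries differed 5.73-fold, against 1.83-fold in the mutant, 1.64-fold for hbae3 in wild type and 2-fold for hbbe2 in wild type. The order of the libraries differed too. Wild-type replicate 2, lowest for hbbe1.1, was the highest wild-type library for hbbe2, hbae3 and alas2, and for the neighbouring globin rows hbae1 and hbbe3. Without wild-type replicate 2 the log2 fold change of hbbe1.1 was -2.52 (edgeR adjusted p = 3.08e-06), and without wild-type replicate 1 it was -2.09 (4.05e-04).

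hbbe2, a beta-type globin of the minor locus, was at 8.03, 11.0, 5.51, 7.39 and 7.99 CPM in wild-type replicates 1 to 5. In mutant replicates 1 to 5 it was at 4.11, 3.69, 3.41, 3.77 and 2.06 CPM. The groups did not overlap, with the lowest mutant level in replicate 5 and the lowest wild-type level in replicate 3. The means of 7.99 ± 1.98 and 3.41 ± 0.793 CPM (SD, n = 5) gave a log2 fold change of -1.23 ± 0.232 (SE) and an edgeR adjusted p of 2.23e-04. The exact permutation p was 0.00794, and the authors' deposited table gives -1.07 for this gene.

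hbae3, an alpha-type globin of the major locus, was at 77.0, 126, 83.7, 102 and 89.0 CPM in wild-type replicates 1 to 5. In mutant replicates 1 to 5 it was at 97.6, 90.1, 107, 85.5 and 75.7 CPM. The groups overlapped, with only wild-type replicate 2 above the mutant range and only mutant replicate 5 below the wild-type range. The log2 fold change was -0.07 ± 0.151 (SE), with an edgeR adjusted p of 0.674 and an exact permutation p of 0.722. The 95% interval from the permutation test was -0.43 to 0.285 for the difference of mean log2 CPM. It does not reach that difference for hbbe2 (-1.21, interval -1.78 to -0.70) or hbbe1.1 (-2.02, interval -3.00 to -0.75).

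Of 4 other embryonic globin rows tested, hbbe3 and hbae4 of the minor locus fell and hbae1 and hbbe1.3 of the major locus did not pass, 1 of each chain type either way. With hbbe1.1, hbbe2 and hbae3 included, all 3 rows of the minor locus and 1 of 4 rows of the major locus fell, as did 3 of 4 beta-type and 1 of 3 alpha-type rows. These splits were not tested. Of all tested genes, 21.6% were lower in the mutant, and the groups did not overlap for 28.7%. hbbe3, a beta-type gene beside hbbe2, went from 74.4 ± 14.5 to 53.5 ± 5.69 CPM (log2 fold change -0.48 ± 0.137, edgeR adjusted p = 0.00393). hbae4, listed under the older symbol zgc:163057 and the alpha-type gene on the other side of hbbe3, went from 5.29 ± 0.791 to 3.62 ± 0.483 CPM (-0.55 ± 0.129, edgeR adjusted p = 0.00896). In both genes every mutant library lay below every wild-type library. hbae1, an alpha-type gene beside hbbe1.1, was at 76.9 ± 11.1 and 81.2 ± 7.83 CPM (edgeR adjusted p = 0.527), and hbbe1.3, listed as si:ch211-5k11.12, at 17.7 ± 3.35 and 16.1 ± 1.37 CPM (edgeR adjusted p = 0.366). Neither passed, and their groups overlapped.

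**Figure D2:**
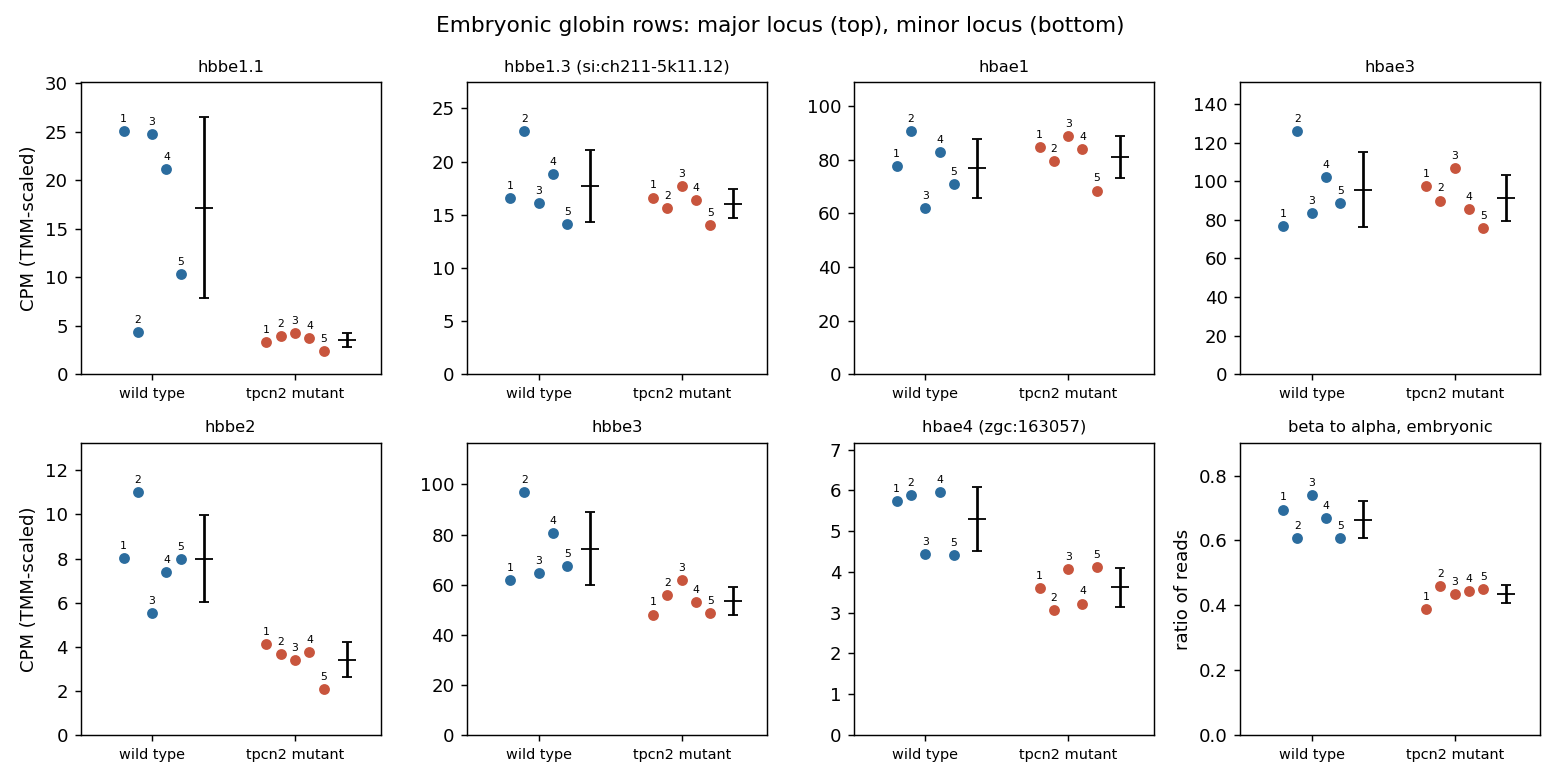
CPM (TMM-scaled) of the embryonic globin rows of the major locus (top) and the minor locus (bottom) in each wild-type (blue) and mutant (red) library, numbered by replicate, with mean and SD in black; the last panel shows the ratio of beta-type to alpha-type reads. The 3 minor locus rows and hbbe1.1 do not overlap between groups, hbbe1.3, hbae1 and hbae3 do, and the ratio lies between 0.607 and 0.741 in wild type and 0.388 and 0.459 in the mutant.

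Globin paralogs can share reads, so sums over rows were set beside the single rows. The sums leave out the embryonic genes hbbe1.2, hbae1.2, hbae1.3 and hbae5, which were not matched to a row. How reads shared by paralogs were counted is not given, so any that were dropped are missing from the sums. hbbe1.1 and hbbe1.3 together held 41.6, 27.3, 40.8, 40.1 and 24.5 CPM in wild-type replicates 1 to 5 and 20.0, 19.6, 22.0, 20.0 and 16.3 CPM in mutant replicates 1 to 5. With these reads summed before the fit, the log2 fold change was -0.83 (edgeR adjusted p = 4.05e-04) in place of -2.27 for hbbe1.1 alone. All beta-type embryonic rows together went from 117 ± 14.2 to 76.5 ± 7.62 CPM, 0.652 times the wild-type level, and every mutant library was below every wild-type library. All alpha-type embryonic rows together were at 178 ± 29.4 and 176 ± 19.2 CPM (SD, n = 5). The ratio of beta-type to alpha-type reads, which is not corrected for length and is read here only between groups, was 0.664 ± 0.0574 for wild type and 0.436 ± 0.0282 for mutant embryos (SD, n = 5). hbbe1.1 made up 15.0 ± 8.25% of the beta-type reads of wild-type libraries and 4.57 ± 0.616% of those of mutant libraries. These shares overlapped, since wild-type replicate 2 (3.231%) lay below every mutant library (3.497 to 5.015%). Adult globin rows had few reads: hbaa1, hbaa2 (si:ch211-5k11.6) and hbba2 (zgc:92880) summed to at most 0.749 CPM in a library, while 3 counts in a library correspond to 0.134 to 0.167 CPM. The adult rows ba1 and ba2 had 0 reads in every library.

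alas2, the erythroid enzyme of the first step, was at 24.9, 30.0, 21.0, 28.1 and 27.1 CPM in wild-type replicates 1 to 5. In mutant replicates 1 to 5 it was at 37.2, 31.4, 37.5, 29.4 and 28.3 CPM. The means were higher in the mutant but the groups overlapped, mutant replicates 4 and 5 lying below wild-type replicate 2. The log2 fold change was 0.32 ± 0.122 (SE), with an edgeR adjusted p of 0.0264 and an exact permutation p of 0.0317. The call ended without wild-type replicate 3 (adjusted p = 0.0609, edgeR), mutant replicate 1 (0.0708) or mutant replicate 3 (0.0712). Relative to the summed embryonic globin reads, alas2 reads stood at 0.0893 ± 0.00852 for wild type and 0.130 ± 0.0097 for the mutant (SD, n = 5), and these ratios did not overlap. The globin sum includes the beta-type rows that fell. Relative to alas1, alas2 reads stood at 0.301 ± 0.0631 for wild type and 0.326 ± 0.0484 for the mutant (SD, n = 5), with overlap.

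alad encodes the enzyme that joins aminolevulinate into the first pyrrole. It was at 78.2, 74.5, 70.4, 79.4 and 71.2 CPM in wild-type replicates 1 to 5 and at 65.6, 58.6, 68.3, 65.1 and 60.9 CPM in mutant replicates 1 to 5. The groups did not overlap, although the decrease was small. The log2 fold change was -0.23 ± 0.0528 (SE), with an edgeR adjusted p of 0.00553 and an exact permutation p of 0.00794.

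urod encodes the decarboxylase that ends the cytosolic steps. It was at 108.4, 122.4, 113, 124 and 114 CPM in wild-type replicates 1 to 5 and at 92.7, 86.7, 99.6, 90.2 and 95.3 CPM in mutant replicates 1 to 5. Again no mutant library reached the wild-type range. The mean fell to 0.800 times the wild-type level (log2 fold change -0.32 ± 0.0498, edgeR adjusted p = 2.80e-04, exact permutation p = 0.00794). Libraries of a group varied little for alad and urod, with coefficients of variation of 5.30 to 6.10%, against 54.4% for hbbe1.1 in wild type.

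cpox, which encodes the mitochondrial oxidase that follows urod, was at 74.0, 57.2, 56.4, 61.0 and 63.2 CPM in wild-type replicates 1 to 5. In mutant replicates 1 to 5 it was at 67.5, 61.3, 68.7, 67.4 and 63.3 CPM. All mutant libraries lay inside the wild-type range, whose top was wild-type replicate 1. The log2 fold change was 0.07 ± 0.0769 (SE), with an edgeR adjusted p of 0.434 and a 95% permutation interval of -0.105 to 0.255 (log2).

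fech, which encodes the ferrochelatase that inserts iron into the ring, was at 6.27, 5.33, 4.50, 5.35 and 4.55 CPM in wild-type replicates 1 to 5. In mutant replicates 1 to 5 it was at 8.28, 5.51, 7.13, 6.31 and 7.08 CPM. The groups overlapped only through wild-type replicate 1 and mutant replicate 2. The log2 fold change was 0.40 ± 0.130 (SE), with an edgeR adjusted p of 0.0340 and an exact permutation p of 0.0159. The call ended without wild-type replicate 3 (adjusted p = 0.0755, edgeR), 4 (0.0512) or 5 (0.0802), or mutant replicate 1 (0.0911), 3 (0.0661) or 5 (0.0634).

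Of the remaining 5 enzyme genes of the pathway, 1 rose and 1 fell (40%, against 42.2% of all tested genes). uros, whose enzyme closes the ring between the hmbsa or hmbsb and urod steps, fell from 24.8 ± 2.06 to 18.7 ± 0.850 CPM with no overlap (log2 fold change -0.41 ± 0.06, edgeR adjusted p = 7.61e-04). alas1 rose from 88.3 ± 8.32 to 100.9 ± 7.52 CPM (0.19 ± 0.0796, edgeR adjusted p = 0.0416). That call ended without wild-type replicate 2 (0.0885, edgeR), 3 (0.056) or 5 (0.0794), or mutant replicate 1 (0.0979), 2 (0.0845) or 5 (0.0818). hmbsa (0.12 ± 0.0519, log2), hmbsb (-0.01 ± 0.128) and ppox (0.16 ± 0.154) did not pass, though hmbsa passed without wild-type replicate 1 (edgeR adjusted p = 0.0461).

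**Figure D3:**
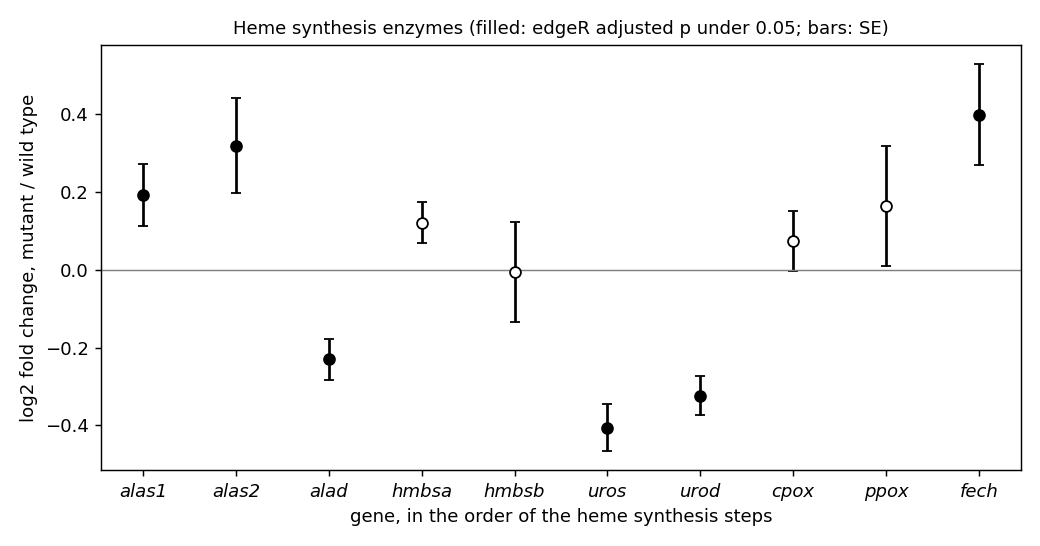
log2 fold change (mutant over wild type) of the 10 heme synthesis genes in the order of their steps, with bars for the SE from the spread of 5 libraries per group; filled points passed an edgeR adjusted p of 0.05. alad (-0.23), uros (-0.41) and urod (-0.32) passed below 0, alas1 (0.19), alas2 (0.32) and fech (0.40) passed above 0, and hmbsa, hmbsb, cpox and ppox did not pass.

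Genes of heme transport and mitochondrial iron import moved both ways, 3 of 13 rising and 2 falling (38.5% called, against 42.2% of all tested genes). slc46a1, a transporter of folate and heme, rose from 4.54 ± 0.707 to 9.33 ± 0.856 CPM, and slc25a28, a mitochondrial iron importer called mitoferrin 2, from 32.9 ± 2.53 to 40.8 ± 1.75 CPM. slc48a1b, a heme transporter of endosomes and lysosomes, fell from 47.4 ± 3.95 to 33.2 ± 3.08 CPM, and clpxa, a subunit of the mitochondrial protease that acts on Alas, from 43.8 ± 3.46 to 36.8 ± 4.55 CPM. The fall count was 1 without wild-type replicate 2, 3 or 5 or mutant replicate 1, 2 or 5. slc25a37, the erythroid mitoferrin, was at 28.7 ± 3.64 and 32.1 ± 2.84 CPM and did not pass (edgeR adjusted p = 0.167).

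Of 7 heme breakdown and binding genes, 4 were lower and none higher (57.1% called). Of all tested genes, 42.2% were called and 21.6% were lower. The median log2 fold change was -0.14 for the list and -0.00116 for all tested genes. blvrb, a biliverdin reductase, fell from 96.5 ± 7.34 to 40.0 ± 8.08 CPM (log2 fold change -1.27 ± 0.137, edgeR adjusted p = 9.85e-07). hmox1a, the inducible heme oxygenase, was at 119, 157, 201, 162 and 163 CPM in wild-type replicates 1 to 5 and at 103, 105, 138, 89.8 and 92.5 CPM in mutant replicates 1 to 5. Its groups overlapped through wild-type replicate 1 and mutant replicate 3, and it fell by 0.60 ± 0.164 on the log2 scale (edgeR adjusted p = 0.00185). hebp2, a heme-binding protein gene, went from 66.1 ± 25.3 to 28.2 ± 2.08 CPM, but wild-type replicate 1 (29.9 CPM) lay inside the mutant range. pgrmc1 went from 184 ± 7.97 to 166 ± 7.54 CPM, with overlap.

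Iron uptake, storage and iron-sulfur assembly genes moved both ways, 2 of 18 rising and 4 falling (33.3%, against 42.2% of all tested genes). slc11a2, the divalent metal transporter that delivers iron to red cells, rose from 93.8 ± 12.1 to 134 ± 8.38 CPM. tfr2, a transferrin receptor gene, rose from 0.608 ± 0.226 to 2.33 ± 0.672 CPM. iscub, a scaffold gene of iron-sulfur clusters, fell from 7.71 ± 2.44 to 3.24 ± 0.557 CPM, but wild-type replicate 1 (3.72 CPM) lay inside the mutant range. Its sulfur donor nfs1 fell from 71.6 ± 2.56 to 59.2 ± 4.23 CPM. The fall count was 2 without wild-type replicate 2 or 3 or mutant replicate 3. tfr1a, the receptor that supplies iron to red cells, was at 4.83 ± 1.26 and 3.81 ± 0.983 CPM and did not pass (edgeR adjusted p = 0.219).

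Other red cell genes did not follow a single direction. Of 11 genes of red cell membrane, enzymes and receptor, 2 rose and 2 fell (36.4%, against 42.2% of all tested genes). Their summed level overlapped between groups. The 2 largest rows of that sum, cahz and znfl2a, moved in opposite directions, so its overlap does not show an equal red cell content. cahz, the red cell carbonic anhydrase, was at 57.1, 68.0, 91.0, 63.6 and 91.9 CPM in wild-type replicates 1 to 5 and at 51.5, 44.1, 50.1, 50.2 and 51.1 CPM in mutant replicates 1 to 5, with no overlap (log2 fold change -0.59 ± 0.145, edgeR adjusted p = 0.00115). tspo, a mitochondrial porphyrin-binding protein, fell from 45.6 ± 5.68 to 37.8 ± 3.38 CPM, while znfl2a rose from 79.1 ± 7.21 to 103 ± 8.8 CPM and gypc from 8.18 ± 1.82 to 10.9 ± 0.759 CPM. The fall count was 1 without wild-type replicate 3 or 4 or mutant replicate 2 or 4. slc4a1a, the band 3 anion exchanger, was at 22.0 ± 2.65 and 19.4 ± 2.94 CPM and did not pass (edgeR adjusted p = 0.212).

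Of 17 primitive blood regulators, 4 rose and 1 fell (29.4%, against 42.2% of all tested genes). blf (70.0 ± 11.1 to 109 ± 5.16 CPM), tal1 (104 ± 6.61 to 126 ± 8.75 CPM) and myb (53.3 ± 2.27 to 64.0 ± 5.24 CPM) rose without overlap, and klf1 fell from 1.51 ± 0.574 to 0.737 ± 0.127 CPM. gata1a, the main activator of erythroid genes, was at 19.9 ± 5.81 and 20.7 ± 1.63 CPM (log2 fold change 0.06 ± 0.218, edgeR adjusted p = 0.806). Of the markers of neighbouring lineages, 2 of 7 endothelial genes rose, kdr and cldn5b (28.6% called), and 4 rose without wild-type replicate 1. The summed level of the 7 endothelial genes was 185.4 to 212.6 CPM in wild type and 231.9 to 268.6 CPM in the mutant. In that sum kdr went from 36.64 ± 6.93 to 65.45 ± 10.98 CPM and cldn5b from 4.22 ± 0.709 to 9.12 ± 0.872 CPM. The other endothelial genes did not pass with all libraries, so the sum does not show a rise shared by the list. Of 5 tested myeloid genes lcp1 fell and spi1b rose (40% called), with summed levels, mostly cebpa, of 139.9 to 206.1 and 161.4 to 195.7 CPM. The myeloid genes that rose were 3 without wild-type replicate 1 or 3, and 2 without wild-type replicate 2, 4 or 5 or mutant replicate 4. Of 5 yolk syncytial layer genes, 2 rose and 1 fell (60%), with summed levels of 6637 to 11030 and 9283 to 10370 CPM. Of the apolipoprotein genes among them, apoea rose from 15.7 ± 11.1 to 47.1 ± 7.78 CPM and apobb.1 from 2621 ± 492 to 3604 ± 159 CPM. apoa2 fell to 0.580 times its wild-type level, and like apoea and apobb.1 it did not overlap between groups. Without mutant replicate 4, 2 yolk syncytial genes fell. The part of these cell types in the globin and heme results was not tested. Of globins outside red cells, the myoglobin gene mb rose from 1.42 ± 0.887 to 3.71 ± 1.28 CPM (edgeR adjusted p = 0.00371) and cygb1 did not pass.

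Within a group, the same libraries were often highest or lowest for several of the 8 genes. Mutant replicate 3 was the highest mutant library for 6 of the 8 genes, and mutant replicates 2 and 5 were each the lowest for 4. Wild-type replicate 3 was the lowest wild-type library for 5 of the 8. How often each library was highest or lowest over all tested genes was not counted, so these counts describe the 8 genes only. hbae3 and alas2 had the same highest and second library in wild type, replicates 2 and 4, and the same order of all 5 libraries in the mutant. hbbe1.1 ran against this order in part of the wild-type libraries. It deviated from its group mean by 0.81 and 0.79 (log2) in replicates 1 and 3 and by -1.69 in replicate 2, where hbae3 had -0.29, -0.17 and 0.42. In wild-type replicates 4 and 5 both genes deviated the same way, hbbe1.1 by 0.564 and -0.469 and hbae3 by 0.12 and -0.082.

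**Figure D4:**
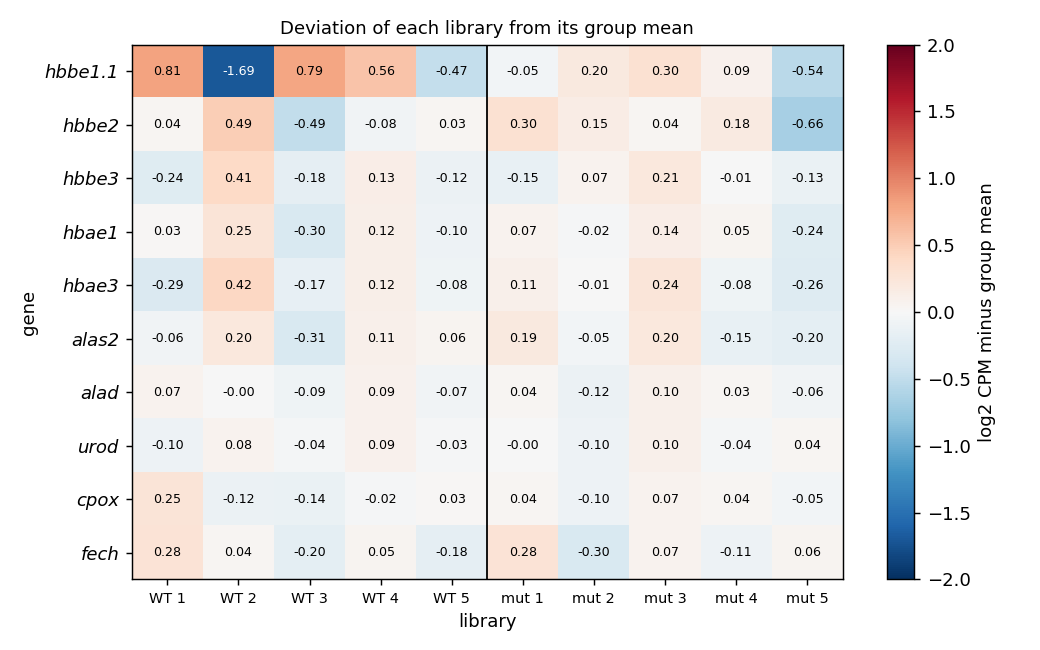
Deviation of log2 CPM from the group mean for the 8 genes with hbae1 and hbbe3 (rows) in each wild-type and mutant library (columns), with the value printed and colored from blue (below the mean) to red (above). hbbe1.1 is lowest in wild-type replicate 2 (-1.69), where hbbe2, hbbe3, hbae1, hbae3 and alas2 are above their means, and alad and urod stay close to 0 throughout.

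The genes most like hbbe1.1 were sought among 11235 genes with a mean of at least 1 CPM, by the Pearson correlation of deviations from group means over the 10 libraries. They were zgc:162082 (r = 0.973), arl5c (0.968) and fam136a (0.965), none of which passed the test between genotypes (edgeR adjusted p = 0.981, 0.804 and 0.124). Those most like alas2 were ipp (r = 0.929), dpydb (0.908) and arpc5b (0.901), of which ipp and arpc5b were lower in the mutant (log2 fold changes -1.06 and -0.53). These correlations describe 10 libraries whose reads also share depth and scaling, and they are the highest of a search over 11235 genes. hbbe1.1 deviated by -1.69 (log2) in wild-type replicate 2 and by -0.541 to 0.302 in the mutant libraries. Its correlations therefore weigh that wild-type library most.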

How the data were processed

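The submitters' processing notes name cutadapt 3.4, STAR 2.7, DESeq2 1.30.0 and builds mm10 and danRer10, with no role for each. Which program counted reads, on which annotation and strand, is not given in the sources used here, so reads of antisense partners cannot be separated. Raw counts, whole numbers for each gene symbol, were deposited. The authors' deposited comparison holds log2 fold changes with their standard errors, p-values, a score (the test statistic) and a signal (the mean of scaled counts, per the file headers). Its direction was read from tpcn2.

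edgeR 4.0.16 under R 4.3.3 filtered the counts with filterByExpr, scaled them by TMM and fitted genotype alone. Log2 fold changes are edgeR's, and their SE comes from the spread of log2 CPM, computed with a prior count of 2, in each group. Alternatives used limma 3.58.1, DESeq2 1.42.0 and other filters, and the pipeline was tested on simulated data. Members and lists were chosen with earlier results of these data known. Named from each list were up to 4 called genes by smallest p, all other heme enzymes and tested hemoglobin rows, and the 3 genes most like hbbe1.1 and alas2. slc25a37, tfr1a, slc4a1a, gata1a and cygb1 were added for their roles after their values were seen. The marker genes he1a, myhz1.1, krt4 and cebpa, which did not pass, were also named outside this rule. Of 12 other hemoglobin genes listed, 7 were matched, 5 of them under another symbol.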

Additional observations from a re-analysis of the deposited data

How the results depend on the processing

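The 4 decreases (hbbe1.1, hbbe2, alad, urod) kept their direction and passed under RLE factors, library size without scaling, DESeq2, limma-voom, no filter, a mean of at least 1 CPM, the replicate block and without any 1 library. The count of higher genes among the 8 was 2, and 0 to 2 with 1 library left out. Over the fits without 1 library, log2 fold changes ran from 0.25 to 0.37 for alas2 (edgeR adjusted p 0.0145 to 0.0712) and from 0.32 to 0.47 for fech (0.0148 to 0.0911). With the replicate number as a block, alas2 was at 0.32 (adjusted p = 0.0536, edgeR), which left 1 higher gene. The numbers are not shown to pair the samples, since same-numbered libraries correlated at -0.062 to 0.075. The sum of hbbe1.1 and hbbe1.3 reads was an alternative chosen after seeing the data. A prior count of 0.5 moved no difference of mean log2 CPM of the 8 genes by more than the spread between replicates. Depth limits the adult globin rows and genes near 1 CPM, and floors cover counting error only.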
